A study of Mus musculus with 1019 samples.

Results

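Regulatory T cells (Tregs) of visceral adipose tissue (VAT) that showed no transcript of Klrg1 were described here. Klrg1 encodes an inhibitory receptor for cadherins found on many differentiated T and NK cells. The cells were chosen as those with 0 unique molecular identifiers (UMIs, 1 per captured mRNA molecule) of Klrg1, whatever their level of Il1rl1, and they numbered 87 of 644 VAT cells and of 1019 cells in all. They came from 2 libraries, VAT library 2 with 53 such cells of 330 and VAT library 3 with 34 such cells. They were set beside the other 557 VAT cells, which had a Klrg1 UMI, and beside the cells of 1 spleen library.

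All cells came from male B6 mice at 20 months of age, without a treatment, and were profiled by inDrops, a droplet method for single cells. The VAT cells were released by collagenase and dispase and the spleen cells by mechanical means, so tissue and dissociation cannot be told apart. The cells were sorted as live, T cell receptor beta positive, CD4 positive and CD25 positive. That gate does not include Foxp3 and CD25 also appears on other activated T cells. No label names an animal, so a library is 1 sample and the spread between the VAT libraries may be technical. The VAT libraries had 2 cell barcodes in common, which involved 1 of the 87 cells, and VAT library 3 and the spleen had 1, which involved none.

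Foxp3 is the transcription factor that defines Tregs. In adipose tissue of older male mice, Tregs are known for a program that includes the interleukin-33 receptor ST2, encoded by Il1rl1, the factors Gata3 and Pparg, and the secreted proteins amphiregulin (Areg) and interleukin-10 (Il10). KLRG1 protein marks many of these tissue Tregs, while Tregs of lymphoid organs mostly lack it and carry the homing receptor CCR7. In the mouse genome GRCm38, Klrg1 lies on chromosome 6 from 122270596 to 122282882 and Il1rl1 on chromosome 1 from 40429570 to 40465415.

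The share of VAT cells with no Klrg1 UMI was highest among the cells with the fewest UMIs and lowest among those with the most. It was 16.1% in library 2 (exact 95% interval 12.3 to 20.5%) and 10.8% in library 3 (7.62 to 14.8%). Over 4 equal classes of cells by total UMIs, from the shallowest to the deepest, it was 22.9, 13.4, 18.3 and 9.64% in library 2 and 18.99, 8.97, 8.97 and 6.33% in library 3. The middle classes of library 2 were out of order. The exact intervals of the shallowest and deepest classes overlapped in each library, and the trend was not tested. Cells just outside the rule, with exactly 1 Klrg1 UMI, numbered 33 and 41. Detected cells had a median of 6 and 5 Klrg1 UMIs. If every detected cell were reduced to 800 of its UMIs, 9.87 and 12.8% of them would be expected to show 0 of Klrg1. Cells that lack the transcript and cells in which it was missed by sampling cannot be told apart here. In the spleen library 12 cells (3.2%) had a Klrg1 UMI.

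**Figure D1:**
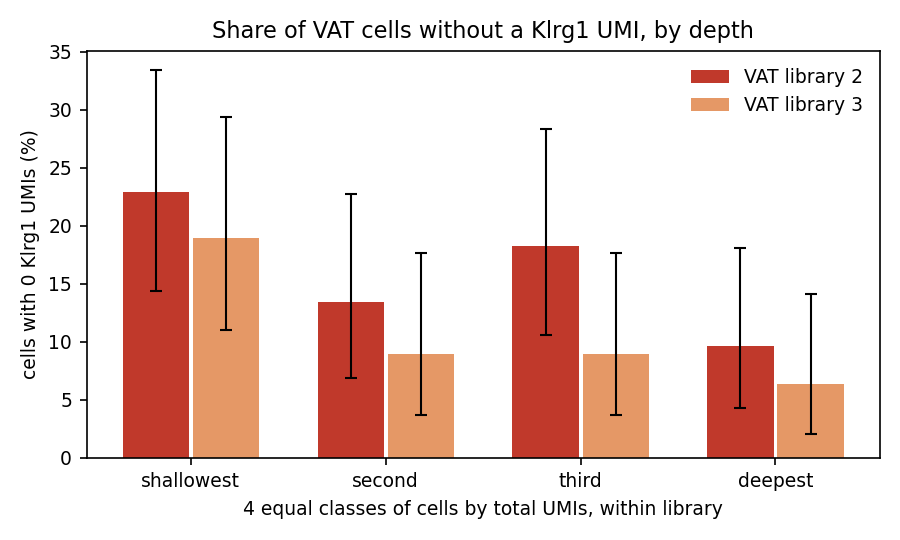
Share of VAT cells with 0 Klrg1 UMIs (%) in 4 equal classes of cells by total UMIs, for VAT library 2 and VAT library 3, with exact 95% binomial intervals of counting error. The share is 22.9 and 18.99% in the shallowest classes and 9.64 and 6.33% in the deepest.

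Because of this pattern over UMIs per cell, each cell without Klrg1 was compared with 3 detected cells of its own library and of like depth. The medians were then 1448 UMIs without Klrg1 against 1451 with it in library 2, and 1371.5 against 1372.5 in library 3. Genes per cell also lay close, at medians of 725 against 720 and 667.5 against 666. The summed depth was 81832 and 50582 UMIs for the cells without Klrg1, 246606 and 151975 for the matched cells and 573571 for the spleen. Levels are given below as UMIs scaled to a common total (CPM), and Klrg1 was left out of every total. For a gene with no UMI, the floor of 3 counts is 36.7 and 59.3 CPM in the cells without Klrg1. Fewer cells that express a gene and less of its RNA per cell cannot be told apart in such sums.

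No gene was called different between the cells without Klrg1 and their matched cells. edgeR's quasi-likelihood test, with library as a block, called 0 of 3981 genes (0%) at an adjusted p under 0.05, and the smallest adjusted p was 0.346. At an unadjusted p under 0.05 it gave 4.5% of genes, of which 74 were higher and the others lower without Klrg1, and DESeq2 gave 15, with 0 after adjustment. The 4 sums leave 1 residual degree of freedom. In size alone, 55 of 1693 genes (3.25%) had values 1.5-fold or more above those of matched cells in both libraries, and 93 (5.49%) had values as far below. With 2-fold as the limit, the numbers were 11 (0.65%) and 25 (1.48%). The sums of cells without Klrg1 are smaller than those of matched cells, so genes of few UMIs reach low ratios or 0 in them more easily. The results on single genes that follow are values that did not pass the test, unless stated otherwise.

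The cells without Klrg1 carried the transcripts of Tregs. Foxp3 stood at 464 and 257.01 CPM in libraries 2 and 3, against 535 and 315.8 CPM in matched cells and 385.3 CPM in the spleen. A Foxp3 UMI was seen in 17 of 53 and 8 of 34 cells (32.1 and 23.5%), in 42.1 and 29.4% of matched cells and in 34.7% of spleen cells. The fitted log2 difference was -0.22 ± 0.32 (SE, adjusted p = 0.997). Library 3 was low for Foxp3 in both classes of cells.

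Il2ra, which encodes CD25, was at 868 and 633 CPM without Klrg1, at 1143 and 1026 CPM in matched cells and at 453.3 CPM in the spleen. Ikzf2, which encodes the Treg factor Helios, was at 782 and 613 CPM against 868 and 823 CPM. Ctla4, an inhibitory receptor of Tregs, was at 403.3 and 514 CPM against 633 and 500 CPM. Over the 14 tested genes of the Treg core list, the median log2 ratio was -0.01 in library 2 and -0.20 in library 3, with values higher for 2 genes and lower for 4 in both. Over all 3981 genes tested, the medians were -0.04 and -0.11, with values higher for 962 genes and lower for 1104 in both. The T cell receptor and CD4 list gave medians of -0.04 and 0.33 over 13 genes. Cd4 itself was at 623 and 554 CPM without Klrg1, within the range of 434.3 to 697 CPM of the other classes. Of these genes, only Il2ra had counting intervals below 1 in both libraries, with ratios of 0.759 (0.576 to 0.987) and 0.616 (0.408 to 0.906) and a fitted log2 difference of -0.50 ± 0.22 (adjusted p = 0.997). How many of all genes have such intervals is not given here.

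Markers of other cells that such a gate could let through were at or near 0 in the 87 cells. As a scale for such counts, 13281 of 23725 genes had a UMI in any of the 1019 cells. The share of all genes with no UMI in the 87 cells is not given here. Of the B cell markers 7 of 9 had no UMI in them, including Cd79a. Of the myeloid markers 11 of 15 had none, including Lyz2, Csf1r and C1qa, and Ctss had 5 and 3 UMIs. Of the CD8 and NK cell markers 8 of 11 had none, Cd8a among them, while Cd8b1 had 3 and 2 UMIs. The 4 erythroid markers had none. Adipocyte markers were at 0 for 7 of 9, Adipoq included, stromal and endothelial markers for 11 of 12, and markers of gamma delta T cells and group 2 innate lymphoid cells for 5 of 7. Myeloid markers gave the highest summed level of these lists, 0.0183 and 0.0217% of UMIs, against 0.0276 and 0.025% in matched cells and 0.0453% in the spleen.

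The receptor of the VAT program was present in the cells without Klrg1 at a lower level than in matched cells of both libraries. Il1rl1 was at 794 CPM in library 2 and 692 CPM in library 3, against 1237 and 1224 CPM in matched cells and 26.2 CPM in the spleen. The ratios were 0.642 (exact 95% counting interval 0.484 to 0.842) and 0.565 (0.382 to 0.815). The fitted log2 difference was -0.70 ± 0.22 (adjusted p = 0.778), so Il1rl1 did not pass the test across all genes. An Il1rl1 UMI was found in 24 of 53 cells and 15 of 34 cells (45.3 and 44.1%), against 69.2 and 65.7% of matched cells. After every cell was thinned to 800 UMIs, the shares were 35.8 and 38.2% against 50.3 and 50%, with 1.87% in the spleen. Both VAT libraries thus gave the same order, and both were far above the spleen. Nearly as many cells without Klrg1 held an Il1rl1 UMI as did not.

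The transcription factors of the program gave values on both sides of those of matched cells, most of them from few UMIs. Gata3, a factor that tissue Tregs share with type 2 helper cells, was at 1320 and 890 CPM without Klrg1 against 1431 and 961 CPM in matched cells, and at 230 CPM in the spleen. Its ratios of 0.922 and 0.926 had counting intervals that included 1 (0.736 to 1.15 and 0.648 to 1.30). Pparg, the nuclear receptor that directs the adipose Treg program, had 9 and 3 UMIs without Klrg1 against 24 and 16 in matched cells, and 2 in the spleen. Scaled to the deeper matched sums, its ratios were 1.13 (0.462 to 2.52) and 0.563 (0.105 to 1.97). Id2, a repressor of E proteins, was at 501 and 652 CPM against 714 and 724 CPM, with ratios of 0.702 (0.487 to 0.991) and 0.901 (0.592 to 1.34). Prdm1, which encodes the repressor Blimp-1, was the 1 gene of the VAT Treg list with higher values in both libraries, at 18 and 4 UMIs against 19 and 4 in the deeper matched sums. Its ratios were 2.85 (1.41 to 5.75) and 3.005 (0.56 to 16.1), with a fitted log2 difference of 1.54 ± 0.66 (adjusted p = 0.997). Ccr2, a chemokine receptor, was lower in library 2 (635 against 835 CPM) and higher in library 3 (988 against 836 CPM). Spleen cells had 6.97 CPM of it.

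Of the secreted factors, Il10, Areg and Mmp9 were among those with lower values without Klrg1 in both libraries, while others went opposite ways. Il10 was at 513 and 434.9 CPM against 965 and 869 CPM in matched cells and 13.9 CPM in the spleen. The ratios were 0.532 (0.374 to 0.741) and 0.501 (0.303 to 0.790), and the fitted log2 difference was -0.93 ± 0.26 (adjusted p = 0.609). Few cells carried this signal: Il10 was seen in 8 and 3 cells without Klrg1, and 1 cell of each library held 11 of 42 and 10 of 22 of the UMIs. When only cells of 1200 or more UMIs were used, thinned to that depth, 0 of 26 in library 3 had one. Counting intervals take no account of such clumps and are therefore too narrow.

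Areg, a growth factor linked to tissue repair, was at 1405 and 1819 CPM without Klrg1 against 1853 and 2632 CPM in matched cells. The spleen had 34.9 CPM. The ratios were 0.758 and 0.691, with a fitted log2 difference of -0.44 ± 0.16 (adjusted p = 0.947). The share of thinned cells with an Areg UMI was 41.5% against 54.1% in library 2 and 58.8% against 57.8% in library 3. Mmp9, a matrix protease, had 8 and 7 UMIs against 56 and 49, with ratios of 0.431 (0.177 to 0.908) and 0.429 (0.164 to 0.953). On the list of secreted factors the medians over 13 tested genes were -0.85 and -0.87, with values higher for 0 genes and lower for 7 in both libraries. Of the 8 members with 50 or more UMIs, 3 were at least 1.5-fold lower in both, beside 5.49% of all eligible genes. These were Il10, Mmp9 and Furin (ratios 0.502 and 0.429), and Areg was not among them. The other 6 tested genes went opposite ways, among them Cxcl2, a neutrophil chemokine, with ratios of 0.604 and 1.27, the fibrinogen-like Fgl2 with 0.554 and 1.20 and the cytokine Ltb with 1.75 and 0.546. The VAT Treg list, which shares Areg and Il10 with it, gave medians of -0.40 and -0.13 over 16 genes, with values higher for 1 and lower for 9 in both.

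**Figure D2:**
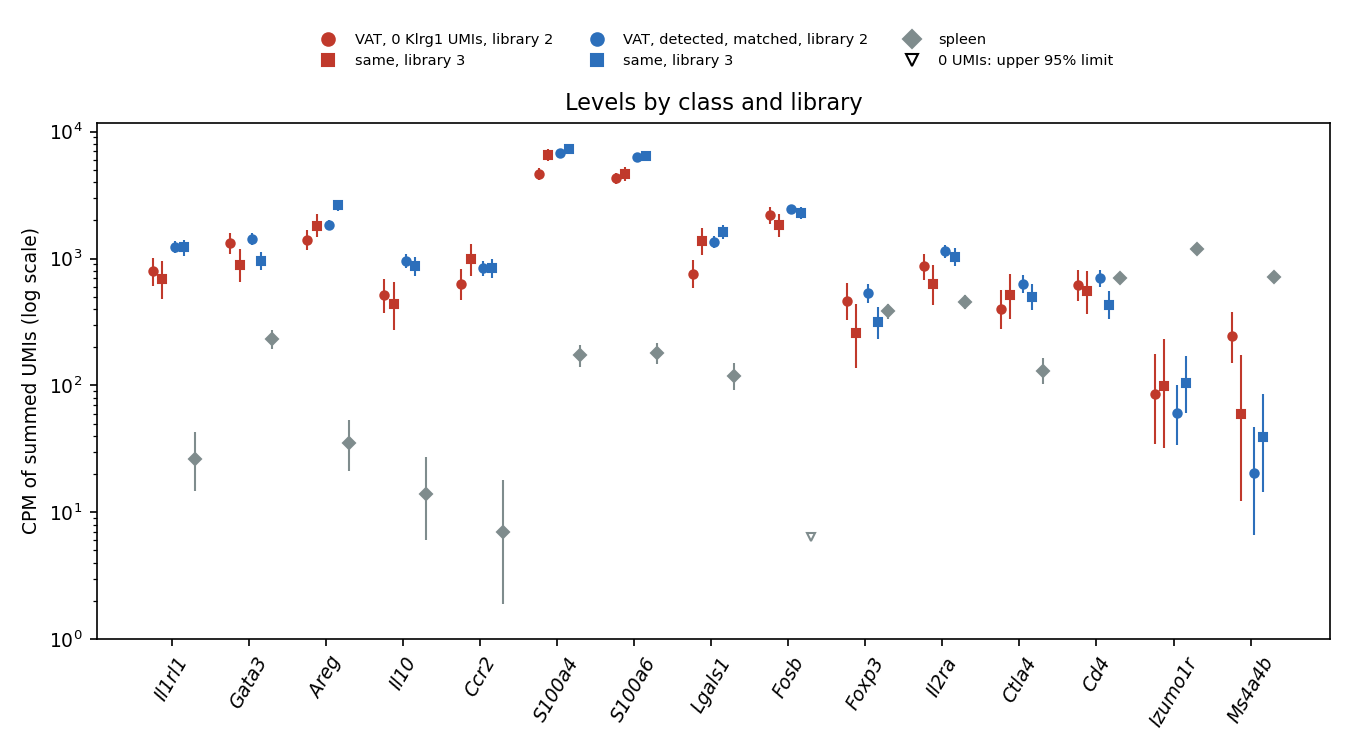
Levels of 15 genes in CPM of summed UMIs on a log scale, with exact Poisson 95% intervals of counting error, for VAT cells with 0 Klrg1 UMIs and their depth-matched detected cells in VAT libraries 2 and 3 and for the spleen. Il1rl1 and Il10 are lower without Klrg1 than in matched cells of both libraries, while both lie far above the spleen. Fosb had 0 UMIs in the spleen and is drawn there at the upper limit.

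The S100 genes encode small calcium-binding proteins that are abundant in effector and tissue T cells. S100a4 and S100a6 both lie on chromosome 3 (90603771 to 90606045 and 90612882 to 90624181). S100a6 was at 4289 and 4626 CPM without Klrg1 against 6269 and 6468 CPM in matched cells, and at 180 CPM in the spleen. The ratios were 0.684 (0.608 to 0.769) and 0.715 (0.618 to 0.826), and the fitted log2 difference was -0.50 ± 0.12 with an adjusted p of 0.494. S100a6 was called lower in 3 of the alternative analyses, among them the one with 1 matched cell per cell without Klrg1 (-0.51, adjusted p = 0.00339), while over all alternatives the adjusted p ran from 0.000433 to 0.999. An S100a6 UMI was seen in 48 of 53 and 33 of 34 cells without Klrg1 (90.6 and 97.1%), against 96.2 and 97.1% of matched cells, so shares of cells leave little room for a difference. After thinning they were 83.02 and 97.1% against 93.1 and 96.1%. Per 800 UMIs, the median cell had 3 in either library without Klrg1, against 5 and 4 in matched cells and 0 in the spleen.

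S100a4 was at 4644 and 6583 CPM without Klrg1 against 6837 and 7324 CPM in matched cells, so the gap was larger in library 2 (ratio 0.679) than in library 3 (0.899). Its fitted log2 difference was -0.34 ± 0.12 (adjusted p = 0.907). Lgals1, which encodes galectin-1, was at 758 and 1364 CPM against 1358 and 1619 CPM. Myadm, a membrane protein of lipid rafts, had 20 and 9 UMIs, at 244.4 and 177.9 CPM against 429.8 and 427.7 CPM. Among the 21 genes of the S100, annexin and cytoskeleton list, values were higher for 0 and lower for 14 in both libraries, with medians of -0.35 and -0.25. Over all 3981 genes tested, values were higher for 962 and lower for 1104 in both. For S100a6, S100a10 and Myadm of this list, named after their values were seen, the counting intervals lay below 1 in both libraries. The share of all genes with such intervals is not given here. The structural members varied. Vim (vimentin) had ratios of 0.997 and 1.10 and Crip1 of 1.02 and 0.975, while Ahnak, a large scaffold protein, had 0.746 (0.630 to 0.880) and 0.929, the actin-binding Tagln2 had 0.738 (0.585 to 0.924) and 0.906, and beta-actin (Actb) had 0.949 and 0.843 (0.750 to 0.945). Even the lower levels were far from the spleen, where S100a4 was at 172.6 CPM.

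**Figure D3:**
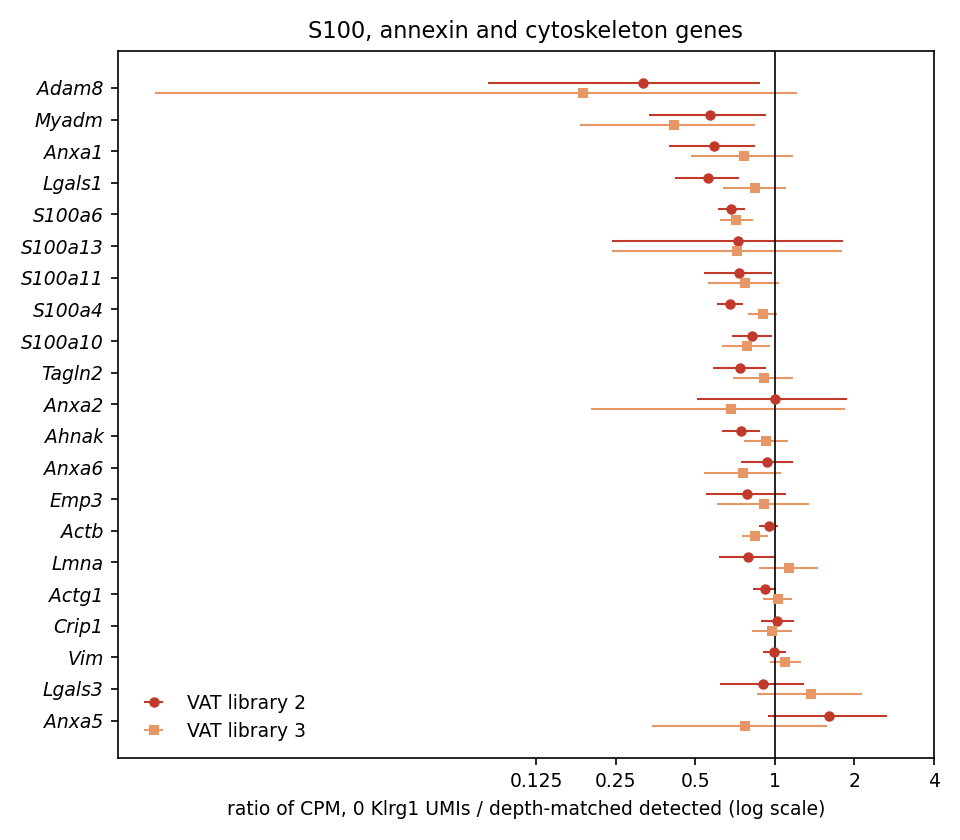
Ratio of CPM in VAT cells with 0 Klrg1 UMIs to depth-matched detected cells (log scale) for 21 genes of the S100, annexin and cytoskeleton list in VAT libraries 2 and 3, with exact 95% intervals of counting error and a line at 1. S100a6, S100a10 and Myadm lie below 1 with their intervals in both libraries, and Vim and Crip1 lie near 1.

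Levels were also read along the number of Klrg1 UMIs in a cell, taking the classes 0, 1, 2 to 3 and 4 or more. Deeper cells reach the higher classes more often: the median was 1448, 1479, 1409 and 1665 UMIs in library 2 and 1371.5, 1496, 1570 and 1691.5 in library 3. Il1rl1 was at 794, 1184, 1128 and 1170 CPM in library 2 and at 692, 1098, 1080 and 1126 CPM in library 3. Cells with a single Klrg1 UMI thus had Il1rl1 levels close to those with 4 or more. S100a6 followed the same shape, at 4289, 5734, 5812 and 6169 CPM and at 4626, 6651, 6635 and 7280 CPM. Il10 was at 513, 857, 728 and 1103 CPM and at 434.9, 665, 483.6 and 960 CPM, so in library 3 the cells with 2 or 3 UMIs lay close to those with 0. These steps were not tested.

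**Figure D4:**
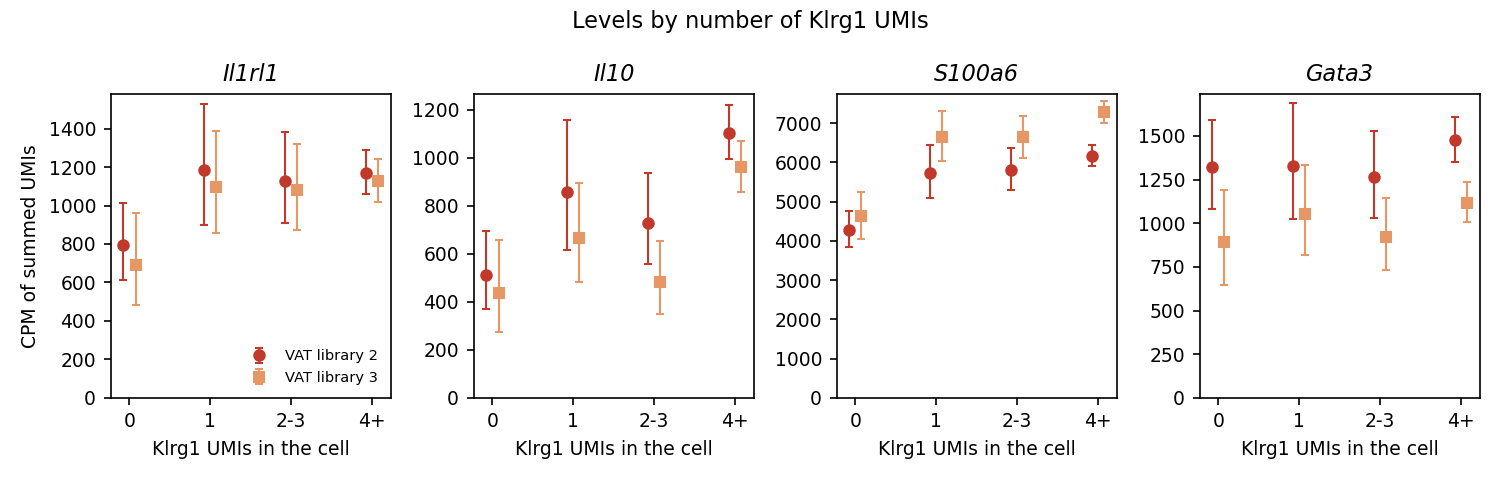
CPM of Il1rl1, Il10, S100a6 and Gata3 in VAT cells grouped by their number of Klrg1 UMIs (0, 1, 2 to 3, 4 or more) in VAT libraries 2 and 3, with exact Poisson 95% intervals of counting error. Il1rl1 and S100a6 are lowest in the class with 0, at 794 and 692 CPM and at 4289 and 4626 CPM, while the Gata3 intervals of that class overlap all others.

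Genes of activation gave mixed values in the cells without Klrg1. The activation and checkpoint list took 0.273 and 0.227% of UMIs against 0.31 and 0.27% in matched cells. Pdcd1, which encodes the checkpoint receptor PD-1, had 1 and 3 UMIs against 34 and 20 in matched cells. The ratios were 0.089 (0.002 to 0.528) and 0.451 (0.086 to 1.52). Cd44, an adhesion receptor of activated T cells, was at 525 and 672 CPM against 1079 and 730 CPM, and its counting interval lay below 1 in library 2 only (ratios 0.487 and 0.920). The 7 tested genes of the activation and checkpoint list had medians of -1.04 and -0.59, with values higher for 2 (Icos and Cd28) and lower for 4 in both libraries. Cd69, an early activation and retention molecule, went opposite ways, at 1332 against 1148 CPM in library 2 and 791 against 1191 CPM in library 3. The AP-1 and immediate early genes, which digestion of a tissue can also induce, had medians of -0.02 and 0.17 over 21 genes. Fos was at 1699 and 2372 CPM against 1610 and 1790 CPM, with 27.9 CPM in the spleen. Fosb was at 2187 and 1839 CPM without Klrg1 and had 0 UMIs in the spleen, at least 418.2-fold and 351.5-fold higher against a floor of 3 counts in the spleen library. The list of effector genes often found with KLRG1 held 22 genes. Of these, 13 had no UMI in the 87 cells, a count given without the share over all genes. The 4 that were tested had medians of -0.03 and -0.20. Gzmb (granzyme B) had 14 and 2 UMIs against 31 and 17 in the deeper matched sums. Scaled to those totals, it was higher without Klrg1 in library 2 and lower in library 3.

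Transcripts of ribosomal proteins took a somewhat larger share of UMIs without Klrg1, 19.6 and 20.7% against 17.1 and 18.8% in matched cells. In the spleen the share was 30.1%. Of 79 ribosomal genes tested, values were higher for 55 and lower for 2 in both libraries, with medians of 0.22 and 0.15 and none at 1.5-fold. Rps18 was at 5939 and 7176 CPM against 5077 and 4876 CPM, and Rps27a at 2334 and 2531 CPM against 1727 and 1869 CPM. By class of Klrg1 UMIs, the ribosomal share was 19.6, 17.6, 17.3 and 17.5% in library 2 and 20.7, 19.1, 19.8 and 19.7% in library 3. The share of reads that mapped was 74.2 and 75.8% at the median without Klrg1, 74.7 and 76.3% in matched cells and 70.1% in the spleen. Its part in the ribosomal values was not tested.

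Against the spleen library, 6.52% of 2209 genes were 2-fold or more above it in the cells without Klrg1 of both libraries, and 6.97% were as far below. When ribosomal genes were dropped before scaling, these shares were 5.35 and 9.58%, and with 0.5 UMIs added to every sum they were 6.65 and 5.25%, so the balance of higher and lower genes depended on the processing. There is 1 spleen library, so no test was made. Cxcl2 was at 1418 and 1601 CPM without Klrg1 and 3.49 CPM in the spleen, and Lgals3 had 41 and 30 UMIs against 0. Izumo1r, a Treg surface protein also called folate receptor 4, was at 85.5 and 98.8 CPM against 1196 CPM in the spleen, and at 60.8 and 105.3 CPM in matched cells. Tcf7 and Id3, factors of resting lymphocytes, had 0 UMIs in the 87 cells and in their matched cells, and 22 and 58 in the deeper spleen sum. For Tcf7, the floors of 36.7 and 59.3 CPM without Klrg1 lie near or above its spleen level. In either library alone, its 0 is therefore no clear difference from the spleen. Tcf7 and Id3 are 2 of 6 genes without a UMI in the 87 cells on the lymphoid homing and resting list of 21. The share of all genes without one is not given here. The lymphoid homing and resting list took 0.202 and 0.164% of UMIs without Klrg1, 0.165 and 0.166% in matched cells and 0.308% in the spleen. Its medians against matched cells were 0.26 and -0.14 over 8 tested genes, with values higher for 3 and lower for 2 in both libraries. Some of the single genes named here were chosen for their distance from the spleen or after their values were seen. They describe levels and do not by themselves place the cells without Klrg1 on the VAT or the spleen side.

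To see how single cells varied, genes at least 4-fold higher in detected VAT cells than in the spleen (the VAT set) and 53 genes at least 4-fold lower (the spleen set) were summed per cell, each cell thinned to 800 UMIs. The sets were chosen on detected VAT cells that were not among the matched ones, so neither of the 2 VAT classes compared entered the choice. The spleen cells and the unmatched detected cells did enter it. Their distance from each other in these sets is therefore in part built in. The matched cells still share a detected Klrg1 with the cells that chose the sets. This can favour lower VAT set and higher spleen set values in the cells without Klrg1, so the 2 classes were not read on equal terms. The VAT set had a mean of 87.3 and 95.8 UMIs without Klrg1, 102.7 and 98.3 in matched cells and 7.73 in the spleen. The lowest cell without Klrg1 had 7 in library 2 and 33 in library 3, and the medians were 94 and 98. Only 1 of the 87 cells, in library 2, was at or under 19 UMIs, the 95th percentile of spleen cells, and 86 were above it. Among all detected cells there was also 1, in library 3, with 18 UMIs, which was not among the matched cells.

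A tail towards low values was seen in library 2. There 6 of the 53 cells without Klrg1 were under the lowest of the matched cells (42 UMIs), although there were 3 matched cells for each, against 0 of 34 in library 3, where the lowest matched cell had 30. In the same library 4 cells without Klrg1 exceeded the highest spleen set value of matched cells (6 UMIs), against 0 in library 3. Of all detected cells the highest had 6 in library 2 and 11 in library 3, above the 9 of the highest cell without Klrg1, so high values were not confined to cells without Klrg1. The spleen set averaged 1.77 and 1.26 UMIs per cell without Klrg1, 0.73 and 0.902 in matched cells and 9.06 in the spleen. At least 1 of its UMIs was found in 60.4% (46 to 73.5%) and 67.6% (49.5 to 82.6%) of cells without Klrg1, against 41.5% (33.8 to 49.6%) and 47.1% (37.1 to 57.2%) of matched cells and all spleen cells.

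**Figure D5:**
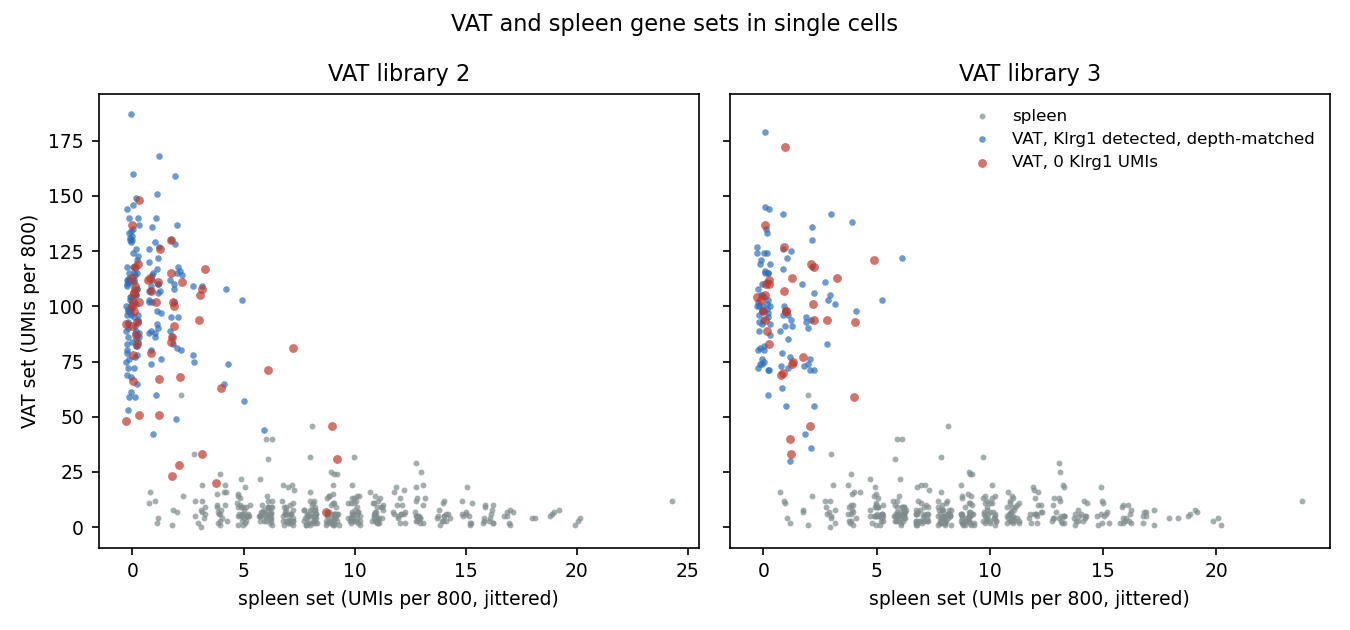
UMIs of the VAT set against UMIs of the spleen set per cell, thinned to 800 UMIs, for VAT cells with 0 Klrg1 UMIs, depth-matched detected cells and spleen cells, by VAT library (the same spleen cells are drawn in both panels, and the horizontal values are jittered by up to 0.3). Most cells without Klrg1 lie among the detected cells, and 6 of library 2 lie under the lowest of 42 UMIs in matched cells.

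The cell with the lowest VAT set value had 7 UMIs of it and 9 of the spleen set, per 800 UMIs. It was deep, with 2202 UMIs, and held 7 UMIs of Ms4a4b, 3 of Izumo1r, 2 of Ccr7 and 2 of Cd4, and 0 of S100a4, S100a6, Il1rl1 and Foxp3. No detected VAT cell of either library had more spleen set than VAT set UMIs, while 230 spleen cells did. Spleen cells and unmatched detected cells entered the choice of the sets, so that contrast is in part fixed by the choice. The 6 cells of the tail held 10.2% of the UMIs of the cells without Klrg1 in library 2, but 13 of 20 of Ms4a4b, all 3 of Ccr7 and 3 of 7 of Izumo1r. Ms4a4b, a membrane protein of T cells, was at 244.4 and 59.3 CPM without Klrg1, against 20.3 and 39.5 CPM in matched cells and 711 CPM in the spleen. Its fitted log2 difference was 2.39 ± 0.79 (adjusted p = 0.88), and its level in library 2 came largely from the tail. The same 6 cells held 2.85% of the library's S100a6 UMIs in cells without Klrg1, 3.16% of S100a4, 1 of 65 of Il1rl1 and 0 of 42 of Il10. Without them, the remaining 47 cells of library 2 had 4643 CPM of S100a6, 871 CPM of Il1rl1 and 572 CPM of Il10, still under the matched cells, and 18.6% ribosomal UMIs. S100a6 and Il1rl1 are themselves in the VAT set, so leaving out cells low in that set raises them by construction. Doublets, which mix transcripts of 2 cells, were not removed here.

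Splitting the cells without Klrg1 by Il1rl1 gave 24 and 15 cells with a UMI and 29 and 19 without. Those without either transcript had a median VAT set of 91 and 94 UMIs per 800. The median was 6 in the spleen, whose cells entered the choice of the set. Gata3 was at 1083 and 592 CPM without Il1rl1 and 1587 and 1280 CPM with it, and Areg at 1014 and 1498 CPM against 1847 and 2240 CPM. S100a6 went the other way, at 4424 and 5225 CPM without Il1rl1 against 4137 and 3840 CPM with it. Within matched cells Gata3 was at 1329 and 838 CPM without Il1rl1 against 1473 and 1015 CPM with it, and S100a6 at 6985 and 6598 CPM against 5981 and 6411 CPM. Areg was at 1372 against 2047 CPM there in library 2 but at 2686 against 2608 CPM in library 3, the opposite order. These splits are descriptions of small sets, and the difference between them was not tested.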

How the data were processed

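The authors deposited raw UMI counts per gene symbol and cell, not normalized. Per the labels' protocols, sorted cells were encapsulated by inDrops, and a NextSeq500 was used for sequencing. TopHat2, SAMtools and the build mm10 appear in the submitters' processing notes. For the cell filter, doublet removal and gene annotation, details are not given in the sources used here. Columns were matched to samples by title, and groups follow the labelled source. Cells had 819 UMIs or more without Klrg1.

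The members, gene lists and tests were chosen with earlier results of these data known, and lists are described by counts and medians only. Within each VAT library, 3 detected cells per cell without Klrg1 were matched by optimal assignment on log total UMIs. UMIs were summed per library and class. Genes with 20 or more UMIs over the 4 sums were tested with edgeR 4.0.16 (quasi-likelihood, TMM, library as block, Benjamini-Hochberg adjustment). The scripts were first tested on simulated data. That simulation used less dispersion than the common value of 0.045 in these data, so it does not give the power of the test here. Library is a block because both classes come from 1 library. Size rules used genes with 50 or more UMIs and plain ratios of CPM, in which a gene with 0 UMIs in one sum counts as past the limit. Fold intervals are exact conditional binomial and shares exact Clopper-Pearson (95%). Intervals cover counting error only. Cells were thinned to 800 UMIs without replacement, and none was lost. Coordinates are from GENCODE M21 (GRCm38).

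Named genes were a fixed set of 24, the 12 highest and 12 lowest genes by the smaller of the 2 log2 ratios, up to 4 per list, and the 8 highest and lowest against the spleen. Some of these genes are not reported here. Genes named by value in the text outside these, such as Lgals3, Vim, Crip1, S100a10, Ahnak, Tagln2, Actb, Prdm1, Fgl2, Ltb, Ms4a4b and Id3, were chosen after their values were seen. Alternatives were DESeq2 1.42.0, other normalizations, minimum counts, comparators and thinning depths, and single libraries.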

Additional observations from a re-analysis of the deposited data

How the results depend on the processing

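The count of 0 called genes was also 0 with members and all detected cells, instead of matched ones, thinned to 800 UMIs. It was 0 with a comparator of 2 or more Klrg1 UMIs, in deeper cells, without ribosomal genes and in cells with a Foxp3 UMI. It stayed 0 with totals not scaled by TMM, with DESeq2 size factors and with the DESeq2 test. At a minimum of 50 UMIs and with no replicate block it was 0 as well. It was 2 against all detected cells, not matched for depth (S100a6 and Penk), 1 with 1 matched cell per member (S100a6), 1 without the deepest 5% of cells and 1 at a minimum of 10 UMIs (Ube4b in both), and 4 at a minimum of 1 UMI (S100a6, S100a4, Il10 and Ube4b). All of these were lower without Klrg1. At a minimum of 1 UMI, fitted log2 differences of genes that were not called moved down as well. Gata3 went from -0.09 to -0.26, Ccr2 from -0.07 to -0.24 and Foxp3 from -0.22 to -0.39. The part of this shift in the calls was not tested. Ube4b had 0 UMIs in the members against 22 and 33 in matched cells. With counts capped at 1 per cell, or with 1 matched cell per member, Ube4b fell under the minimum for testing. Its UMIs therefore sat in fewer matched cells than that minimum, in clumps as for Il10. The 0 in the smaller set of members is thus a less clear absence than these UMIs make it look.

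The shares of eligible genes 1.5-fold or more above and below in both libraries were 3.67 and 8.49% against all detected cells, 2.24 and 3.61% with 1 matched cell, 3.12 and 6.72% in members above the median depth, and, with counts capped at 1 per cell (chosen after seeing the data), 1.14 and 1.92%. In cells with a Foxp3 UMI, compared with all detected cells with one and not matched for depth, 11.7% were below. At a minimum of 20 UMIs, 6.46% of genes were above and 10.4% below the spleen. A pseudocount of 0.5 UMIs, also added after seeing the data, gave 4.49% below matched cells. These alternatives change which genes, cells or counts enter, and the causes of the differences between them were not tested.

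Il1rl1, Il10, Areg, S100a6 and S100a4 kept a negative log2 difference in each alternative and in each library alone. Gata3 turned to 0.0024 without the deepest 5% of cells and 0.081 with capped counts. Ccr2 turned to 0.0060 against cells with 2 or more Klrg1 UMIs and ran from -0.39 in library 2 alone to 0.24 in library 3 alone, and Pparg to 0.16 in cells with a Foxp3 UMI and from 0.18 in library 2 alone to -0.83 in library 3 alone. Leaving out a library gives values with no test. With 34 to 53 cells, genes of few UMIs could not be compared at this depth.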
